A study of Homo sapiens with 2 samples.

Results

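The genes described here make the leukotrienes and prostaglandins, with 1 receptor gene, and were taken from a list of 10: PLA2G4A, ALOX5, ALOX5AP, LTA4H, LTC4S and LTB4R on the leukotriene side, and PTGS1, PTGS2, PTGES and PTGES3 on the prostaglandin side. A gene was included where a probe set carried its symbol and no other, which left 8 of the 10 among 18404 genes named in this way. LTC4S is annotated only on probe sets shared with MAML1, and LTB4R was not analysed here. The samples were 2 Affymetrix Human Gene 1.0 ST arrays of wild-type HL-60 cells, a human promyelocytic leukaemia line grown in DMEM with fetal bovine serum, labelled replicates 1 and 2. The labels name no treatment or genetic change, and the series as a whole concerns how RNA bound to DNMT1 relates to DNA methylation and gene expression. All samples form 1 group, so no groups are compared and no p-value is given. Precision is limited by having 2 arrays. Separate cultures are not mentioned for them, so their spread may be technical.

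Leukotrienes and prostaglandins are lipid mediators made from arachidonic acid. Cytosolic phospholipase A2 (PLA2G4A) frees the acid from membranes. The lipoxygenase ALOX5, helped by the membrane protein ALOX5AP, turns it into leukotriene A4, from which LTA4H makes the neutrophil attractant leukotriene B4 and LTC4S the cysteinyl leukotrienes. The cyclooxygenases PTGS1 and PTGS2 instead make prostaglandin H2, which enzymes such as PTGES turn into prostaglandin E2. Neutrophils, monocytes and mast cells are the best known sources of leukotrienes, and undifferentiated HL-60 cells are known for little ALOX5 until they are driven to mature.

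The stretches of DNA just before ALOX5AP, PTGES3 and PTGS2 are shown because the first pair are the genes of the set with signal above both background thresholds, and because the 3 differ in CpG sites, the targets of DNA methyltransferases. Each is the 250 bases before the annotated start of transcription, from RefSeq on GRCh38.p14, in the direction of the gene, with the CpG sites in capitals. That of ALOX5AP lies at chr13:30713235-30713484 on the plus strand and has 3 CpG sites, that of PTGES3 at chr12:56688285-56688534 on the minus strand with 30, and that of PTGS2 at chr1:186680424-186680673 on the minus strand with 9.
ALOX5AP: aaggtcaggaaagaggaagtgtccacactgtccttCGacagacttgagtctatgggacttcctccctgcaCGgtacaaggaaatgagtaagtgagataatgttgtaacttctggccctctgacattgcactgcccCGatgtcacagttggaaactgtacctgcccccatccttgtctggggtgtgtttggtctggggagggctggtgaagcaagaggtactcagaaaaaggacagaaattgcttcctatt
PTGES3: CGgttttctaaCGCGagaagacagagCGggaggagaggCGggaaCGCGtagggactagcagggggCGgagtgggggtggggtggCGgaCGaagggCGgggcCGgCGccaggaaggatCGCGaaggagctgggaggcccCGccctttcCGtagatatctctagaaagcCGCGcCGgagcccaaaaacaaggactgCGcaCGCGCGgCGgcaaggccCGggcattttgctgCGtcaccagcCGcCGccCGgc
PTGS2: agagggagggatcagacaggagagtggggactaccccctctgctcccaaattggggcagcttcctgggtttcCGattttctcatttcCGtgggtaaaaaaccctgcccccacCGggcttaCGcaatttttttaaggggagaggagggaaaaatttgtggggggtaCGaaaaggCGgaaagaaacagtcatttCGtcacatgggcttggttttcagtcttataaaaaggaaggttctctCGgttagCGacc

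Signals are log2 values made by the authors with RMA. Background was set from 340 olfactory receptor genes, with a limit at their 95th percentile. It was 2.98 on replicate 1 and 2.87 on replicate 2. A stricter threshold, the 95th percentile of 115 keratin-associated protein, bitter taste receptor and beta-defensin genes, was 5.41 on replicate 1 and 5.23 on replicate 2. Of those 115 genes 37 (32.2%) passed the olfactory threshold, so a signal between the thresholds is weak evidence of expression. A gene was counted as above a threshold where it exceeded it on both arrays. Probes differ between genes, so a signal is set against these thresholds and not against that of another gene.

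Of the 8 genes, 4 were above the olfactory threshold, namely ALOX5AP, LTA4H, PTGES and PTGES3, against 55.8% of all named genes. The other four, PLA2G4A, ALOX5, PTGS1 and PTGS2, were below it on both arrays. ALOX5AP and PTGES3 were also above the second threshold, which 17.0% of all named genes exceeded. With so few members these shares lie near those of all genes, and the count alone sets the group apart from nothing.

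On the leukotriene side, PLA2G4A, the phospholipase that supplies arachidonic acid, read 2.91 on replicate 1 and 2.73 on replicate 2 (mean 2.82 ± 0.13, SD, n = 2). Relative to the olfactory threshold it stood at -0.07 on replicate 1 and -0.15 on replicate 2, the closest to that limit of the genes below it. Readings so close to the limit neither show nor exclude a low level of its mRNA. ALOX5, the lipoxygenase itself, read 2.50 on replicate 1 and 2.19 on replicate 2 (2.34 ± 0.22). It stood at -0.48 on replicate 1 and -0.69 on replicate 2 relative to the olfactory threshold.

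ALOX5AP, the membrane protein that presents arachidonic acid to ALOX5, read 8.46 on replicate 1 and 8.69 on replicate 2 (8.58 ± 0.16, SD, n = 2). Both arrays exceeded the second threshold, by 3.05 on replicate 1 and 3.46 on replicate 2. The gene of the helper protein was thus above both thresholds in cells where that of the enzyme it serves was above neither. LTA4H, the hydrolase that makes leukotriene B4 and also acts as an aminopeptidase, read 4.91 on replicate 1 and 4.99 on replicate 2 (4.95 ± 0.05). It exceeded the olfactory threshold by 1.93 on replicate 1 and 2.11 on replicate 2, and stood at -0.50 on replicate 1 and -0.25 on replicate 2 relative to the second one.

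On the prostaglandin side, neither cyclooxygenase gene was above background. PTGS1, the constitutive enzyme of platelets and stomach lining, read 2.71 on replicate 1 and 2.50 on replicate 2 (2.61 ± 0.15, SD, n = 2). PTGS2, the form that inflammatory signals induce, read 2.55 on replicate 1 and 1.71 on replicate 2 (2.13 ± 0.59). Its arrays lay further apart than those of any other gene of the set, and both were below the olfactory threshold.

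PTGES, the inducible membrane-bound prostaglandin E synthase, read 3.49 on replicate 1 and 3.52 on replicate 2 (3.50 ± 0.02, SD, n = 2). It was above the olfactory threshold by 0.50 on replicate 1 and 0.64 on replicate 2 and below the second threshold on both arrays. With the olfactory limit at the 99th percentile in place of the 95th it was no longer above background. PTGES3 read 6.36 on replicate 1 and 6.49 on replicate 2 (6.43 ± 0.09). It exceeded the second threshold by 0.95 on replicate 1 and 1.25 on replicate 2. PTGES3 encodes p23, a partner of the chaperone HSP90 found in most cells and also described as a cytosolic prostaglandin E synthase.

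**Figure D1:**
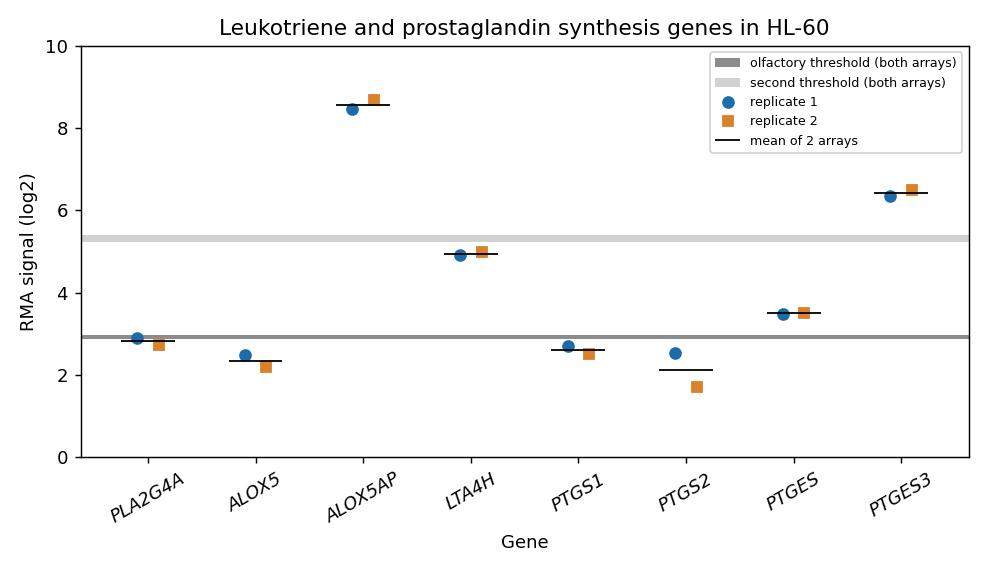
RMA signal (log2) of the 8 genes on replicate 1 (circles) and replicate 2 (squares), with the mean of both arrays as a line. The grey bands span each background threshold over the arrays. ALOX5AP (8.58) and PTGES3 (6.43) lie above both bands, LTA4H and PTGES lie between them. ALOX5, PTGS1 and PTGS2 lie below the lower band, and PLA2G4A at its edge, with replicate 1 (2.91) inside the band but below that array's own threshold.

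The arrays differed little in these genes. The difference, replicate 2 minus replicate 1, was positive for 4 genes and negative for 4. Its median was -0.07 on the log2 scale, against -0.04 over all named genes, and it ran from -0.84 for PTGS2 to 0.23 for ALOX5AP. None of the 8 (0) differed by more than 1, as 1.96% of all named genes did. All 4 genes above the olfactory threshold were slightly higher on replicate 2 and all 4 below it were lower there. Of the 8 differences, 7 were within 0.31, and that of PTGS2 was -0.84. The signs of all 8 were the same after quantile normalization and after loess. Lower signal on replicate 2 was also more common among the olfactory receptor genes (210 lower, 98 higher) and all named genes (9687 lower, 7755 higher). The SD of the difference over all named genes was 0.39, which corresponds to 0.28 per array. The difference of PTGS2 was as large or larger in 1.79% of the genes of like mean signal (1 of 10 equal bins). As both its arrays were below background, that value describes the array signal and is not a measured difference in mRNA. For ALOX5AP the same share was 54.0%, for PTGES3 73.9%, for LTA4H 86.8% and for PTGES 90.8%, so the 4 genes above background differed between the arrays by no more than most genes of like signal.

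**Figure D2:**
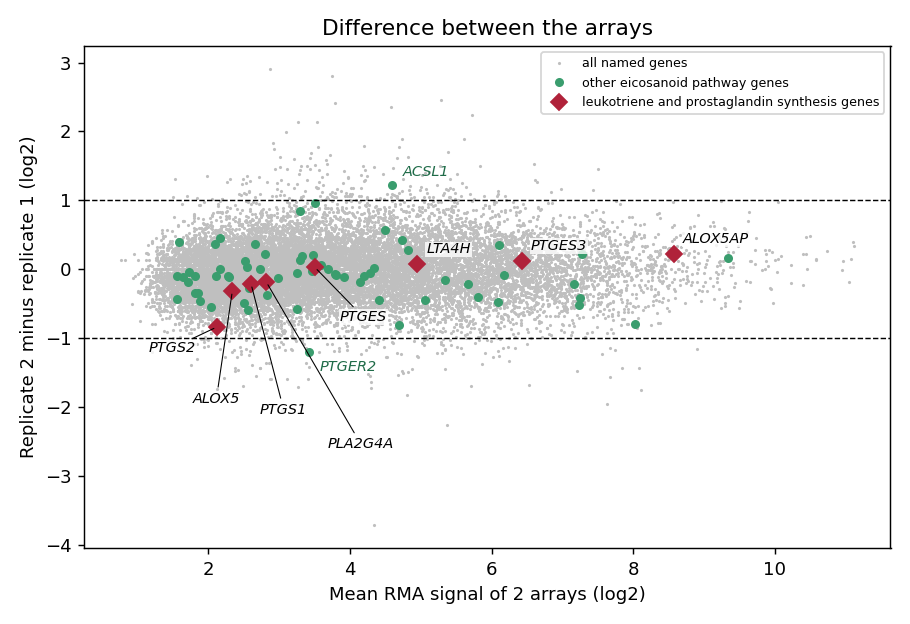
Difference between the arrays (replicate 2 minus replicate 1, log2) against the mean RMA signal (log2), for all named genes (grey dots), 65 other eicosanoid pathway genes (green circles) and the 8 synthesis genes (red diamonds). Dashed lines mark a difference of 1 in each direction. All 8 lie between them, while ACSL1 (1.22) and PTGER2 (-1.21) lie outside.

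The rest of the pathway was read from 8 lists of genes arranged by step, of which 65 measured genes are not among the 8. The olfactory threshold was passed by 36 of them (55.4%) and the second by 12 (18.5%), close to the shares over all named genes, while 25 passed the olfactory threshold on neither array. Their median difference between the arrays was -0.10, and 2 of the 65 differed by more than 1.

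At the first step, 6 of 15 phospholipases and related lipases were above the olfactory threshold, against 55.8% of all named genes. PLCG2, a phosphatidylinositol-specific phospholipase C of immune cells, was above the second (6.17 ± 0.06), although its probe sets read 4.84 and 7.50 (means over 2 arrays). The diacylglycerol lipase gene DAGLB read 5.10 on replicate 1 and 4.29 on replicate 2. The calcium-independent phospholipase gene PNPLA8 read 3.03 on replicate 1 and 3.99 on replicate 2. PLA2G6, another calcium-independent phospholipase, was below the olfactory threshold (2.29 ± 0.08), as was the lipoprotein-associated PLA2G7 (1.65 ± 0.08).

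The genes that make arachidonic acid and load it into membranes were all above the olfactory threshold, 9 of 9. Above the second were 7 of them. The shares of all named genes were 55.8% and 17.0%. ELOVL5, an elongase of polyunsaturated fatty acids, read 9.33 ± 0.11. The desaturase gene FADS1 (7.28 ± 0.16) and the acyltransferase gene LPCAT3 (7.17 ± 0.15), which puts arachidonate into phospholipids, were above both thresholds. Another desaturase gene, FADS2 (5.34 ± 0.11), passed the second threshold only narrowly. It read 5.4121 on replicate 1 against a threshold of 5.4096, and 5.2625 on replicate 2 against 5.2335. ACSL4, which activates arachidonate as its CoA ester, read 5.66 ± 0.15. ACSL1, a long-chain acyl-CoA synthetase, read 3.98 on replicate 1 and 5.20 on replicate 2, and MBOAT7, which puts arachidonate into phosphatidylinositol, read 4.14 ± 0.14. These genes also serve membrane lipids in general.

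Around ALOX5, 6 of 10 genes of the leukotriene route passed the olfactory threshold and 4 the second. MGST2, a glutathione transferase that can also make leukotriene C4, read 7.46 on replicate 1 and 7.04 on replicate 2, and its relative MGST3 8.42 and 7.63 on replicates 1 and 2. COTL1, an actin-binding protein that also binds 5-lipoxygenase, read 6.09 ± 0.33. DPEP2, which turns leukotriene D4 into E4, read 3.69 on replicate 1 and 3.70 on replicate 2. GGT5, which converts leukotriene C4, was below the olfactory threshold on both arrays (2.50 ± 0.34). So were CYP4F3 (2.56 ± 0.16) and PTGR1 (1.71 ± 0.13), which inactivate leukotriene B4. GGT1 and DPEP1, also of this list, were not among the named genes, so the route is only partly covered. ALOX5AP, PTGES, MGST1 (3.59 ± 0.04), MGST2 and MGST3 belong to 1 protein family, the MAPEG proteins, as does LTC4S. Of its 5 measured members, 5 passed the olfactory threshold, as 55.8% of all named genes did, and 3 the second, as 17.0% did. The grouping was chosen after the values were seen, so these counts describe it and support nothing.

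The other lipoxygenases were mostly not above background. ALOX12, the platelet enzyme, was above the olfactory threshold (3.26 ± 0.41), while ALOX15 (2.16 on both arrays), ALOX15B (2.66 ± 0.26), ALOX12B (2.56 ± 0.41) and ALOXE3 (2.55 ± 0.03) were not. GPX4, which reduces lipid hydroperoxides and is listed with them, was above both thresholds (5.81 ± 0.28).

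Of 14 genes of the cyclooxygenase route, 8 were above the olfactory threshold, and PTGES3 was the 1 above the second. The first count lies near the 55.8% of all named genes, and 17.0% of those passed the second threshold. TBXAS1, the thromboxane synthase, read 4.21 on replicate 1 and 4.78 on replicate 2. PTGES2, a further prostaglandin E synthase (3.25 ± 0.04), PTGDS, a prostaglandin D synthase (3.47 ± 0.02), and PRXL2B, a prostaglandin F synthase (4.34 ± 0.01), were above the olfactory threshold as well. HPGDS, the prostaglandin D synthase of mast cells (2.16 ± 0.32), and PTGIS, the prostacyclin synthase (2.04 ± 0.39), were not. With the olfactory limit at the 99th percentile the count of 8 was 4.

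Of 7 genes of prostaglandin breakdown and transport, 4 were above the olfactory threshold, near the 55.8% of all named genes. HPGD, the enzyme that inactivates prostaglandins, read 2.88 on replicate 1 and 3.73 on replicate 2, above it on replicate 2 only. The exporters ABCC4 (5.06 ± 0.32) and ABCC1 (4.83 ± 0.20), which carry prostaglandins and leukotriene C4 among other substrates, were above it, and the uptake carrier SLCO2A1 (2.74 on both arrays) was not.

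Among the receptors, CYSLTR1, which binds cysteinyl leukotrienes, read 4.52 on replicate 1 and 4.95 on replicate 2, and OXER1, a receptor for oxidised arachidonic acid, 3.23 and 3.37 on replicates 1 and 2. These were the 2 of 5 leukotriene and lipoxin receptor genes above the olfactory threshold, since CYSLTR2, FPR2 and CMKLR1 were below it on both arrays. Of 9 prostanoid receptor genes, 4 were above it: PTGER1 (3.79 ± 0.04), PTGER4 (3.91 ± 0.08), PTGDR2 (3.80 ± 0.06) and PTGIR (3.32 ± 0.14). PTGER2, a prostaglandin E2 receptor, read 4.02 on replicate 1 and 2.82 on replicate 2, where it was below the threshold. No receptor gene (0 of 14) was above the second threshold. The shares of all named genes were 55.8% for the olfactory threshold and 17.0% for the second.

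**Figure D3:**
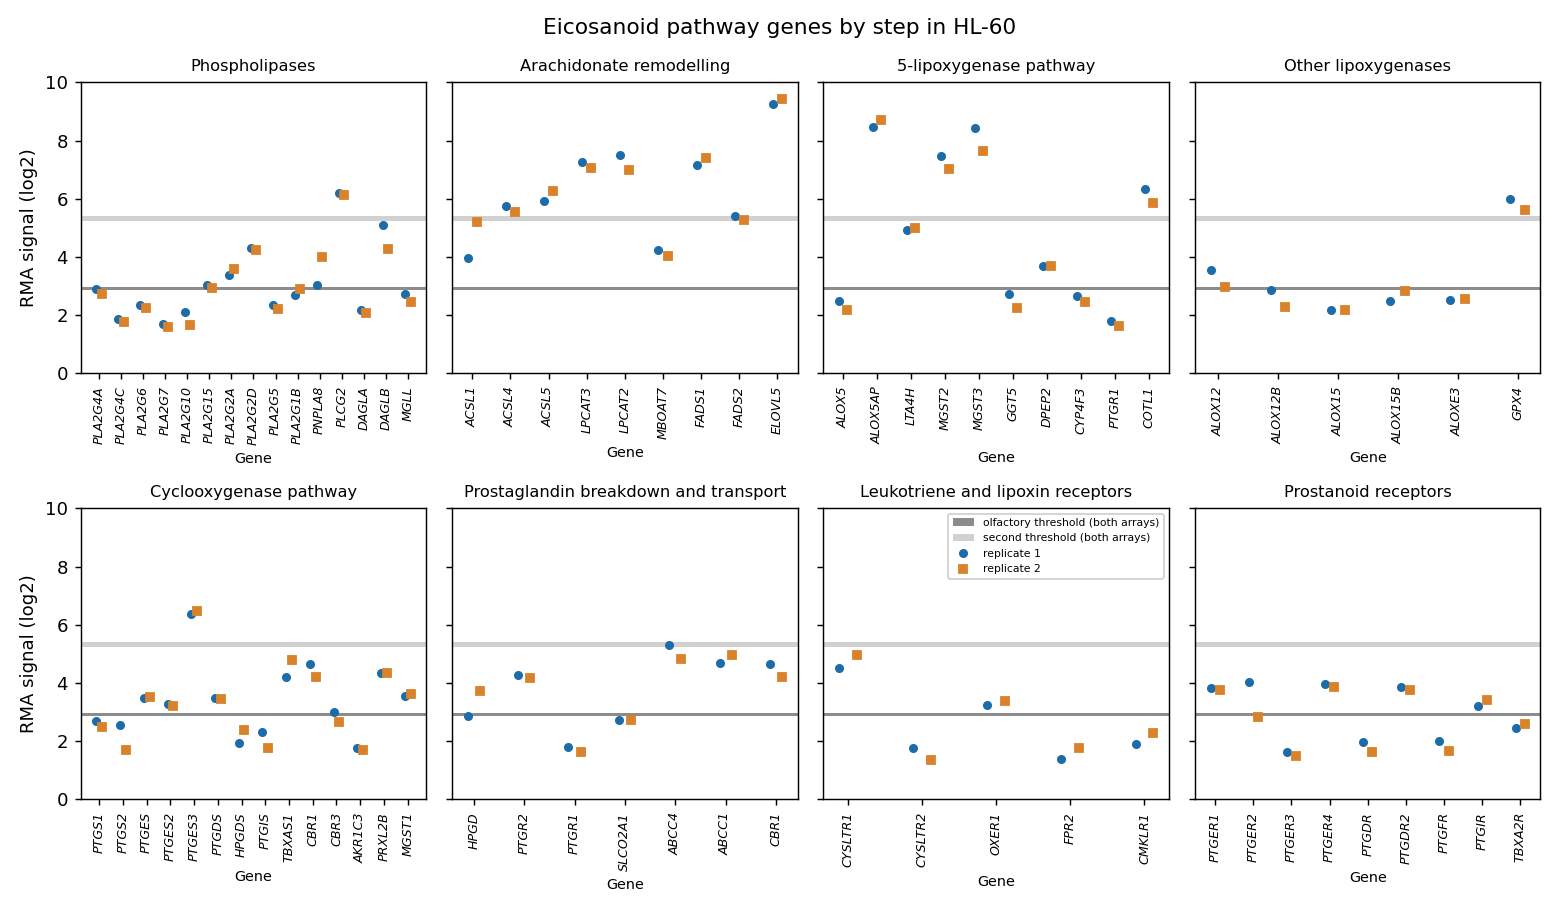
RMA signal (log2) of the eicosanoid pathway genes by step, on replicate 1 (circles) and replicate 2 (squares), with the background thresholds as grey bands. All 9 genes of arachidonate remodelling lie above the lower band, whereas 4 of 6 other lipoxygenase panel genes and 4 of 9 prostanoid receptors lie below it on both arrays. Of all named genes, 55.8% were above the olfactory threshold on both arrays.

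PTGES3 was also set beside genes of the HSP90 chaperone cycle. Each of the 8 measured passed the olfactory threshold and 7 passed the second, among them HSP90AA1 (8.38 ± 0.12) and HSP90AB1 (9.29 ± 0.41), which encode HSP90 itself. The exception was STIP1, a co-chaperone that links HSP70 to HSP90, with 5.93 on replicate 1 and 4.76 on replicate 2. Of 12 genes of kinases, transcription factors and binding proteins known to act on ALOX5 or phospholipase A2, 10 passed the olfactory threshold and 5 the second. For both lists the shares to set beside these counts are those of all named genes, 55.8% and 17.0%. DICER1, whose product binds 5-lipoxygenase, read 6.87 ± 0.27, and the transcription factors SP1 and SMAD4 read 6.15 ± 0.28 and 6.98 ± 0.35. VDR, the vitamin D receptor, was above the olfactory threshold only (3.28 ± 0.08). S100A8 (1.54 ± 0.29), whose product carries arachidonic acid with that of S100A9, was below it on both arrays, and S100A9 was above it on replicate 2 only (2.85 on replicate 1 and 3.17 on replicate 2).

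In the DNA printed above, the CpG sites differ widely between the genes. RefSeq's table held 9 of the 10 listed genes, all but ALOX5, and the first of its entries was used for PTGS1. The median over 14230 named genes was 18 CpG sites in the 250 bases before the start. PTGES3 had 30, more than 83.2% of them, and 4 matches to GGGCGG on either strand, a motif found in 57.5% of these stretches. LTA4H had 14 CpG sites, PTGS2 and PTGES 9 each, PTGS1 4, ALOX5AP 3 and PLA2G4A 2. Of the 7 measured genes with a sequence, 6 were below the median of named genes. Methylation was not measured on these arrays.

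ALOX5AP, which was printed because of its signal, passed both thresholds, as few genes with so few CpG sites did. Of 2723 named genes with 0 to 4 CpG sites there, 601 (22.1%) passed the olfactory threshold and 109 the second. Of 6403 genes with 20 or more, 4625 (72.2%) passed the olfactory threshold and 1600 the second. ALOX5AP, PTGS1 and PLA2G4A fall in the first class, and ALOX5AP is the 1 of them above either threshold. PTGES3 falls in the class with 20 or more. These shares describe genes of 1 cell line on the same arrays and carry no test. TATAAA, searched on both strands, was found before PTGS2 and PTGS1, and in 8.60% of the stretches of named genes.

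**Figure D4:**
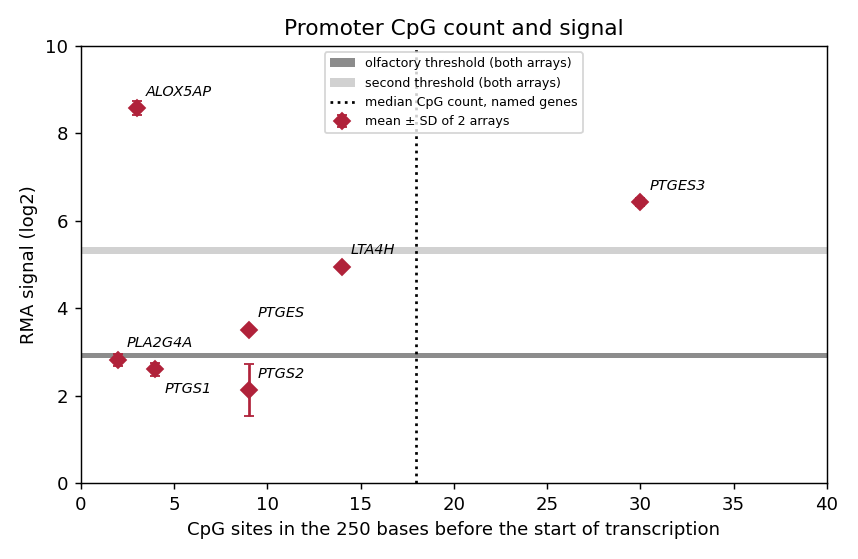
RMA signal (log2, mean ± SD of 2 arrays) against the number of CpG sites in the 250 bases before the start of transcription, for the 7 measured genes with a sequence. Grey bands are the background thresholds and the dotted line is the median of named genes (18). ALOX5AP combines 3 CpG sites with a signal of 8.58, whereas PTGES3 has 30.

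The promyelocyte label was checked against granule and progenitor markers, of which 9 of 9 measured passed the olfactory threshold and 5 the second. MPO, the myeloperoxidase of primary granules, read 8.21 on replicate 1 and 7.48 on replicate 2. The median difference of the list was -0.73, with 4 genes lower on replicate 2 by more than 1, and its summed linear signal was 2471 on replicate 1 and 1756 on replicate 2, while ALOX5AP and PTGES3 were slightly higher there. What part this has in the signals above was not tested. Markers of other cells that make eicosanoids were above the olfactory threshold in 1 of 8 cases for monocytes and macrophages, 1 of 7 for mature neutrophils, 3 of 8 for platelets and 3 of 7 for mast cells, basophils and eosinophils. Among lymphocyte markers the count was 3 of 8, and among epithelial and stromal markers 2 of 6. The same threshold was passed by 55.8% of all named genes and by 32.2% of the second background set. PRG2, of the mast cell, basophil and eosinophil list, was also above the second threshold (7.71 ± 0.34). No marker of the monocyte, neutrophil or platelet lists was. The summed linear signal of the monocyte list was 57.5 on replicate 1 and 49.6 on replicate 2, and that of the platelet list 62.4 and 62.9 on replicates 1 and 2. In a bulk sample, fewer cells of a type and less RNA per cell cannot be told apart.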

How the data were processed

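Total RNA of 2 HL-60 samples was amplified, biotin-labelled and hybridised to Affymetrix Human Gene 1.0 ST arrays, per the labels' protocols. Per the submitters' processing notes the authors ran RMA, and their deposited table gives 1 log2 signal for each probe set and array. Which arrays entered RMA together, and in what software, is not given in the sources used here, nor is the log base, taken as RMA's own. RMA brings arrays to like distributions, so a global difference in RNA cannot be seen. No scanner files were used.

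Of 32321 probe sets, 19158 carried 1 gene symbol, 1388 several and 11775 none in the platform annotation. Symbols were updated through Entrez IDs (19128 found in RefSeq's gene table), giving 18404 genes. The 637 genes with several probe sets took their mean; each of the 8 genes here has 1. Values are mean ± SD over 2 arrays. With 1 group no test was made, so genes were counted against thresholds and a difference of 1 (log2) between the arrays. All members and any measured gene of the fixed lists could be named, and no gene was sought for a like pattern, which 2 arrays do not give. The members and lists were chosen with earlier results of these data known. The counting and normalization steps were tested on simulated data. In these, silent and expressed genes were centred far apart, so the test says little about calls close to a threshold. Python 3.11.15, numpy 2.4.6, pandas 2.3.3, statsmodels 0.14.6 and matplotlib 3.10.9 were used.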

Additional observations from a re-analysis of the deposited data

Results flagged for a closer look

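Probe sets that the counts above leave out carry LTC4S, the leukotriene C4 synthase gene, together with its neighbour MAML1, a coactivator of Notch signalling. The first read 4.88 on replicate 1 and 4.42 on replicate 2 (mean 4.65), and the second 4.21 on replicate 1 and 3.73 on replicate 2 (mean 3.97). Both were above the olfactory threshold and below the second one on both arrays, which is why they are given here. The signal cannot be assigned to either gene.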

How the results depend on the processing

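No paired analysis was possible because there is 1 group. Recomputing gave 159 values, of which 142 kept to within 1.5 times the count (or, for signals, to the replicate spread) and 17 did not. Among the 142 were 40 recomputed signals of the 8 genes, most of which could not have moved. Loess leaves the mean of both arrays unchanged, and either array alone always lies within the allowed spread. Only quantile normalization could have moved a signal. When the second background set, which lies higher, gave the threshold, 2 of the 8 genes in place of 4 and 12 of the 65 other pathway genes in place of 36 were above background. The counts then were 1 for phospholipases, other lipoxygenases and the cyclooxygenase route, 0 for breakdown and transport and for both receptor lists, and 5 for the regulators of ALOX5 and phospholipase A2. With the olfactory limit at the 99th percentile, PTGES was no longer above background (3 of 8 genes), and the counts were 3 for phospholipases, 4 for the cyclooxygenase route and 1 for other lipoxygenases and for each receptor list. Of the 65 other pathway genes, 24 in place of 36 were then above background, which still counted as kept. With the median of all named genes as threshold, other lipoxygenases and leukotriene receptors had 1 each. With a difference of 0.5 in place of 1, 1 of the 8 genes (PTGS2) differed between the arrays. Quantile normalization, loess and either array alone moved no count of the 8 genes. Each of the 8 has 1 probe set, so the choices among probe sets could not change their signals. The difference of PTGS2 was -0.72 after quantile normalization and after loess. The calls of PTGES and LTA4H against background depended on the threshold. None of the alternatives run changed the call of ALOX5AP, PTGES3, PLA2G4A, ALOX5, PTGS1 or PTGS2. For PLA2G4A, ALOX5, PTGS1 and PTGS2 this says little. They were below the olfactory threshold on both arrays, and each other threshold tried was higher. Neither those thresholds nor either array alone could have raised them above background. No lower threshold was tried, and PLA2G4A stood at only -0.07 on replicate 1 and -0.15 on replicate 2 relative to the olfactory one.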
